A study of Homo sapiens with 6 samples.

Results

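The α- and β-tubulin isotypes were described here as 10 genes of the deposited count table, selected by symbol, out of 35474 genes listed: TUBA1A, TUBA1B, TUBA1C and TUBA4A for α-tubulin, and TUBB, TUBB2A, TUBB2B, TUBB3, TUBB4B and TUBB6 for β-tubulin. The choice used no expression value, although it was made with earlier results of these data known. All 10 passed edgeR's filter on low counts, which left 20776 genes. The libraries came from A549 cells, an epithelial line derived from a human lung adenocarcinoma, collected 48 h after transfection with a siRNA against BAP18 (siBAP18, 3 cultures) or with an untargeted siRNA (siCtrl, 3 cultures). BAP18 is a chromatin-associated protein encoded by C17orf49, and the comparison asked which transcripts differed once its mRNA was depleted. The sources used here do not state which of the study's BAP18 siRNAs these cultures received, so an effect of that siRNA on other transcripts and an effect of losing BAP18 cannot be told apart. Values of the 3 libraries of a group are listed in the order of replicates 1, 2 and 3. The siCtrl libraries summed to 53657450, 46035635 and 47099816 counts, and the siBAP18 libraries to 53996860, 56548620 and 42094524 counts. Levels are given in CPM, the usual depth-scaled count, here with library totals scaled by TMM, and the error is the SD over 3 libraries.

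Microtubules are hollow polymers of α- and β-tubulin heterodimers, and they form the mitotic spindle, the tracks of intracellular transport and the core of cilia. Vertebrates encode several isotypes of each subunit that copolymerise, and these differ mostly in the acidic carboxy-terminal tail, which lies on the outer surface of the microtubule and carries glutamylation and other modifications. TUBB, TUBB4B, TUBA1B and TUBA1C are found in most dividing cells, whereas TUBA1A, TUBB2A, TUBB2B and TUBB3 are best known from neurons, and TUBB3 is also widely studied in lung and other carcinomas. Cells also adjust tubulin mRNA to the amount of free tubulin: TTC5 binds the first residues of a nascent tubulin chain at the ribosome and, through SCAPER and the CCR4-NOT deadenylase, marks the mRNA being translated for decay.

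The coding sequences carry both features. They were read from GENCODE 29 transcripts on GRCh38, 1 principal transcript a gene, and each of these 10 transcripts has 4 exons. The first codons are shown because they encode the residues that TTC5 reads. The first 4 codons are in capitals in the following 24 bases from the start codon.
TUBA1A: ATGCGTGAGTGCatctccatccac
TUBA4A: ATGCGTGAATGCatctcagtccac
TUBB: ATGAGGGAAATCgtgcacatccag
TUBB3: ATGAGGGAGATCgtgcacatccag

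All 10 coding sequences start with a methionine codon, an arginine codon and a glutamate codon. The fourth codon is one for cysteine in the 4 α genes and one for isoleucine in the 6 β genes.

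The last 60 bases of the coding sequence are shown for 4 β isotypes because they encode the tail by which isotypes are told apart. The stop codon is in capitals.
TUBB: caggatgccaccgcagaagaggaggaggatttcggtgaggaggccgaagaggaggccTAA
TUBB3: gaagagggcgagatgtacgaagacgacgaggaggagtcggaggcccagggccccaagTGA
TUBB4B: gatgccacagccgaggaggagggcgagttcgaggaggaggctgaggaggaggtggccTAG
TUBB6: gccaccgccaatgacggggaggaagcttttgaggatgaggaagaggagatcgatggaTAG

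Among the 6 β isotypes, glutamate codons (GAA or GAG) made up between 7 (TUBB6) and 10 (TUBB4B) of the last 19 codons before the stop codon. Among α isotypes, the coding sequences of TUBA1A, TUBA1B and TUBA1C were 95.9% to 97.2% identical. TUBB2A and TUBB2B were 98.1% identical, while TUBB was 80.9% to 84.7% identical to the other β isotypes. The genes TUBA1A (chr12:49184796-49189324, minus strand), TUBA1B (chr12:49127782-49131397, minus strand) and TUBA1C (chr12:49188736-49274603, plus strand) lie side by side. TUBB2A (chr6:3153669-3157526) and TUBB2B (chr6:3224261-3231730), both on the minus strand, are also neighbours, and TUBB lies elsewhere on the same chromosome (chr6:30720201-30725426, plus strand). The remaining genes are TUBA4A (chr2:219249711-219278170, minus strand), TUBB3 (chr16:89921392-89938761, plus strand), TUBB4B (chr9:137241213-137243707, plus strand) and TUBB6 (chr18:12307669-12344320, plus strand).

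The siRNA target was lower in every siBAP18 library. C17orf49 had 743, 751 and 705 counts in siCtrl libraries, and 120, 137 and 108 counts in siBAP18 libraries. The log2 fold change of −2.65 had a standard error of 0.111 and an adjusted p of 7.31e-16 (quasi-likelihood test of edgeR, adjusted by Benjamini and Hochberg's method over all 20776 genes, as for each adjusted p that follows).

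The isotypes did not move together in siBAP18 cells. TUBB mRNA fell to 0.485 times its siCtrl level, 7 isotypes rose between 1.28-fold (TUBB2B) and 1.88-fold (TUBA1A), and TUBA1B and TUBB4B, the α and β isotypes with the highest levels per gene length (RPKM), did not pass the test. The count of 1 isotype lower stands beside 25.1% of all genes tested, and the count of 7 higher beside 24.5%. TUBB alone also passed an absolute log2 fold change of 1, a range that held 3.74% of all genes on the lower side and 4.72% on the higher side. For 8 of the 10 isotypes the 3 siBAP18 values all lay on one side of the 3 siCtrl values, against 56.6% of all genes tested. The median log2 fold change was 0.42 over the 10 isotypes and 0.0010 over all genes tested. In bulk RNA, fewer cells carrying a transcript and fewer transcripts per cell cannot be told apart.

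**Figure D1:**
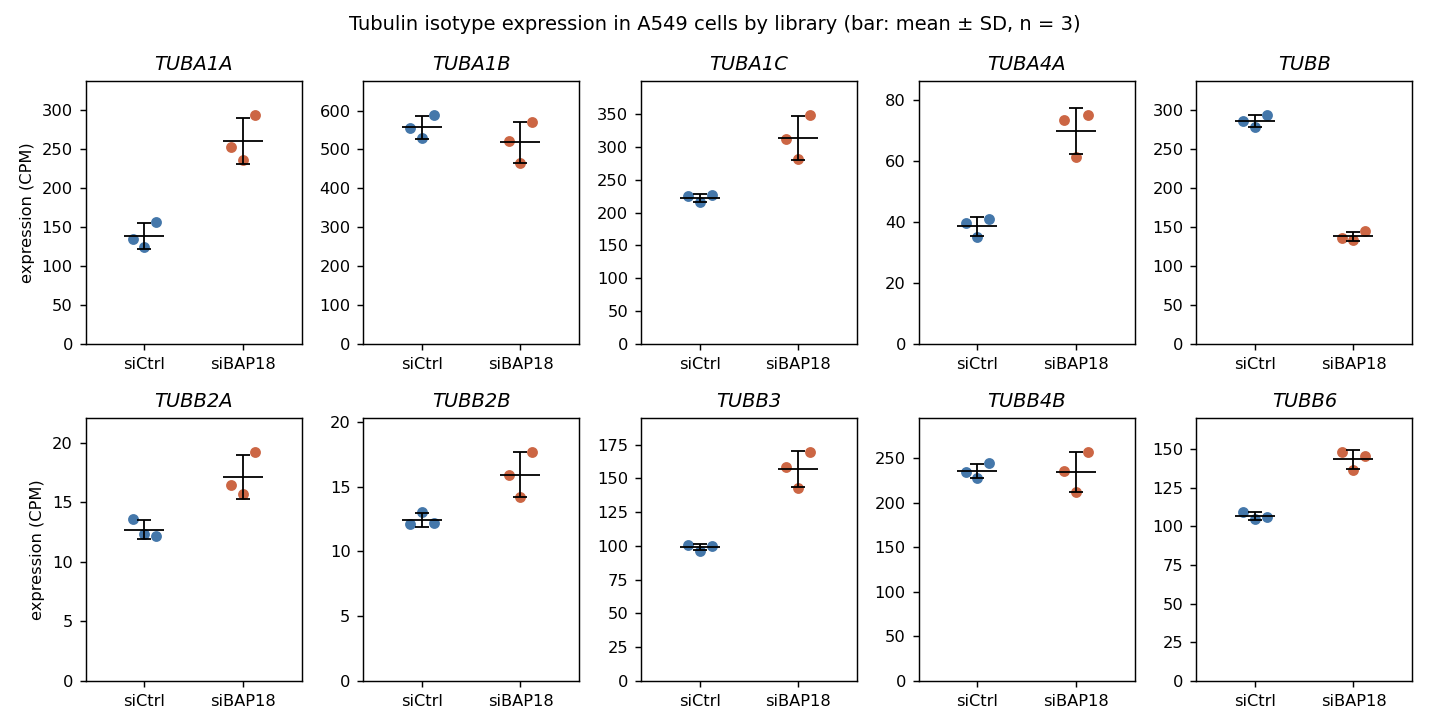
Expression of the 10 isotypes in CPM (vertical axis, from 0, scaled for each gene) in the 3 siCtrl and 3 siBAP18 libraries, with 1 point a library and the mean ± SD in black. The siBAP18 points of TUBB lie between 134 and 145 CPM, below all siCtrl points, those of TUBA1B and TUBB4B overlap siCtrl, and those of the other 7 isotypes lie above it.

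TUBB, the main β isotype of many proliferating cells, had 286, 278 and 293 CPM in siCtrl and 137, 134 and 145 CPM in siBAP18 libraries. The highest siBAP18 library thus lay well under the lowest siCtrl library, and the libraries of each group were close to each other. Mean expression was 286 ± 7.53 CPM in siCtrl and 139 ± 5.88 CPM in siBAP18 libraries (SD, n = 3 in each group), which gave a log2 fold change of −1.05 (95% interval −1.18 to −0.91, adjusted p = 1.91e-12).

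TUBB3, the β isotype used as a neuronal marker, rose most among the β isotypes. It had 100.3, 96.3 and 99.97 CPM in siCtrl and 158, 143 and 169 CPM in siBAP18 libraries, with no overlap. Its log2 fold change was 0.67 (95% interval 0.52 to 0.81, adjusted p = 1.77e-08). TUBB6, a divergent β isotype known from regenerating muscle, had 109, 105 and 106 CPM in siCtrl and 148, 136 and 145 CPM in siBAP18 libraries. All siBAP18 libraries were again above all siCtrl libraries, and the log2 fold change was 0.42 (95% interval 0.29 to 0.56, adjusted p = 6.16e-06).

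TUBB2A and TUBB2B, a pair of near-identical isotypes abundant in brain, were the lowest of the 10. TUBB2A rose from 12.7 ± 0.803 to 17.1 ± 1.85 CPM (SD, n = 3 in each group), a log2 fold change of 0.43 with an adjusted p of 2.84e-04. TUBB2B rose from 12.4 ± 0.508 to 15.9 ± 1.72 CPM (SD, n = 3 in each group), a log2 fold change of 0.35 with an adjusted p of 0.00166. Neither pair of groups overlapped, although siBAP18 replicate 2 of TUBB2B, at 14.2 CPM, came close to siCtrl replicate 2, at 13.0 CPM.

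TUBB4B, a broadly expressed isotype also found in cilia, had 234, 228 and 244 CPM in siCtrl and 235, 212 and 257 CPM in siBAP18 libraries. The siBAP18 libraries enclosed the siCtrl libraries. The log2 fold change was −0.0061 with a 95% interval of −0.15 to 0.14 (adjusted p = 0.952), so a difference of the size seen for TUBB or TUBB3 lay outside the interval.

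Among the α isotypes, TUBA1A rose most. TUBA1A, which is highly expressed in developing neurons, had 135, 124 and 157 CPM in siCtrl and 252.4, 236 and 293 CPM in siBAP18 libraries. The groups were far apart, and replicate 3 was the highest library in each. The log2 fold change was 0.91 (95% interval 0.73 to 1.08, adjusted p = 1.92e-09), and without siCtrl replicate 3 it was 1.00, which put TUBA1A past the fold change limit too.

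TUBA4A, the α isotype encoded without a carboxy-terminal tyrosine, had 39.7, 35.1 and 41.1 CPM in siCtrl and 73.2, 61.2 and 74.9 CPM in siBAP18 libraries. The groups did not overlap, and the log2 fold change was 0.85 (95% interval 0.69 to 1.02, adjusted p = 2.68e-09). TUBA1C, a ubiquitous isotype, had 225, 216 and 227 CPM in siCtrl and 311, 281 and 348 CPM in siBAP18 libraries. All siBAP18 libraries were above siCtrl, and the log2 fold change was 0.50 (95% interval 0.34 to 0.65, adjusted p = 3.48e-06).

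TUBA1B, the isotype with the highest CPM and RPKM in both groups, had 556, 528 and 588 CPM in siCtrl and 521, 464 and 569.8 CPM in siBAP18 libraries. The groups overlapped, and the log2 fold change was −0.10 (95% interval −0.26 to 0.05, adjusted p = 0.255). Without siBAP18 replicate 3, the highest siBAP18 library, it was −0.18 with an adjusted p of 0.0138, which would make 2 isotypes lower, and without siBAP18 replicate 2, the lowest, it was −0.031 with an adjusted p of 0.717. The 3 α genes of chromosome 12 therefore gave 3 different values, and with their counts added into 1 value the log2 ratio was 0.25, given with no test.

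**Figure D2:**
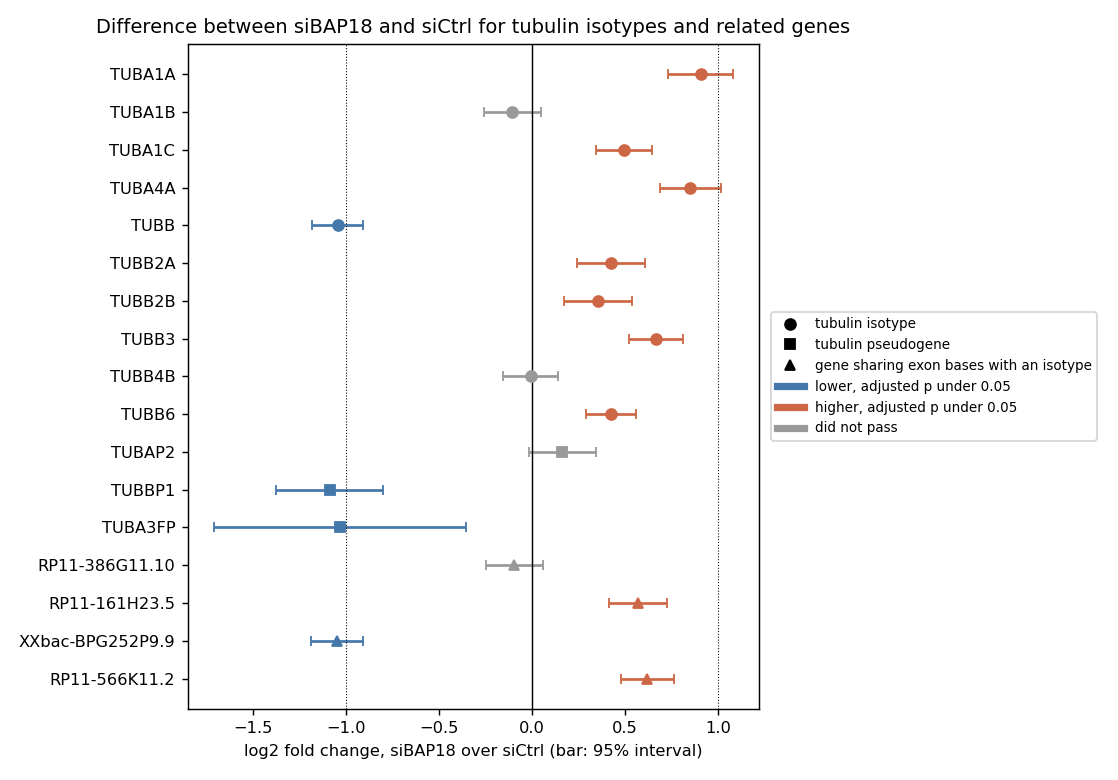
The log2 fold change of siBAP18 over siCtrl with its 95% interval (horizontal axis) for the 10 isotypes (circles), 3 pseudogenes (squares) and 4 genes whose exons share bases with an isotype (triangles), with dotted lines at −1 and 1. The value for TUBB, −1.05, sits beside those of its pseudogene TUBBP1, −1.09, and of the overlapping gene XXbac-BPG252P9.9, −1.05.

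Levels of different isotypes were compared per length, as RPKM, which divides by the gene length listed in the table. In siCtrl cells the order of mean RPKM, from the highest, was TUBA1B, TUBB4B, TUBB, TUBA1C, TUBA1A, TUBB6, TUBB3, TUBA4A, TUBB2A and TUBB2B, and the libraries of neighbours in that order did not overlap. TUBA1B stood at 156 ± 6.99 RPKM and TUBB2B at 5.65 ± 0.293 RPKM (SD, n = 3). In siBAP18 cells TUBB moved from the third place to the fifth, at 41.3 ± 0.347 RPKM (SD, n = 3), behind TUBA1A at 76.0 ± 5.88 RPKM and TUBA1C at 67.6 ± 4.79 RPKM (SD, n = 3). The libraries of TUBA1A and TUBA1C overlapped in siBAP18 cells, as did those of TUBB3 and TUBB6, so the order within these pairs was not resolved. The places depend on the length used. Divided by the length of the principal transcript instead, TUBB was the third in siCtrl and the seventh in siBAP18 cells, at 51.9 ± 0.436 against 88.6 ± 4.66 for TUBB3 and 69.4 ± 2.46 for TUBB6 (RPKM of that length, SD, n = 3), and TUBB3 stood above TUBB6 in siCtrl cells.

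The make-up of the tubulin mRNA differed between the groups, while the sum of all 10 isotypes overlapped. The summed level of the 10 isotypes was 1711, 1636 and 1780.1 CPM in siCtrl and 1868, 1697 and 2039 CPM in siBAP18 libraries, and the groups overlapped. Summed α-tubulin was 957 ± 54.3 CPM in siCtrl and 1162 ± 122 CPM in siBAP18 cells (SD, n = 3), a log2 ratio of 0.28. The α sums did not overlap, at 903 to 1012 CPM in siCtrl and 1042 to 1286 CPM in siBAP18 libraries. Summed β-tubulin was 752 ± 17.9 CPM and 706 ± 49.5 CPM (SD, n = 3), a log2 ratio of −0.09, which was −0.039 without siBAP18 replicate 2 and −0.14 without siBAP18 replicate 3. The β isotypes other than TUBB went from 466 ± 10.5 to 568 ± 44.1 CPM (SD, n = 3), a log2 ratio of 0.28. The libraries did not overlap for this sum, but did for the whole β sum. Summed as RPKM, the log2 ratios were 0.27 for the α isotypes, −0.10 for the β isotypes and 0.20 for the β isotypes other than TUBB. Sums and shares over isotypes are given without a test.

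TUBB made up 32.9%, 33.0% and 33.1% of the summed β-tubulin RPKM in siCtrl and 16.9%, 18.0% and 16.8% in siBAP18 libraries. The mean difference was −15.8 percentage points, and the siCtrl libraries lay within a narrow range. The share of TUBB3 was 8.65% ± 0.105 in siCtrl and 14.8% ± 0.166 in siBAP18 cells (SD, n = 3), and that of TUBB6 was 10.1% ± 0.274 and 14.5% ± 0.72. Per principal transcript length TUBB3 made up 15.0% ± 0.153 and 23.8% ± 0.285 and TUBB6 13.9% ± 0.352 and 18.7% ± 0.874 (SD, n = 3), so their order in siCtrl cells depends on the length used. TUBB4B was the largest β component per length in both groups, at 43.2% ± 0.545 and 46.3% ± 0.913 (SD, n = 3). This rank depends on the unit, since of the summed β-tubulin CPM in siCtrl libraries TUBB made up 38.0% and TUBB4B 31.3%. Per principal transcript length, TUBB made up 28.7% ± 0.116 in siCtrl and 14.0% ± 0.556 in siBAP18 cells, and TUBB4B 38.6% ± 0.558 and 38.5% ± 0.838 (SD, n = 3), so its higher share per listed length did not hold. TUBB2A and TUBB2B stayed small components in both groups. Within α-tubulin, TUBA1B went from 61.4% ± 0.355 to 47.4% ± 0.39, and TUBA1A went from 15.9% ± 0.963 to 24.9% ± 0.58 (SD, n = 3). TUBA1C went from 18.9% ± 0.666 to 22.1% ± 0.0659, and TUBA4A from 3.73% ± 0.121 to 5.59% ± 0.259 (SD, n = 3). A share is relative, and the lower share of TUBA1B stands beside a level that did not pass the test.

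**Figure D3:**
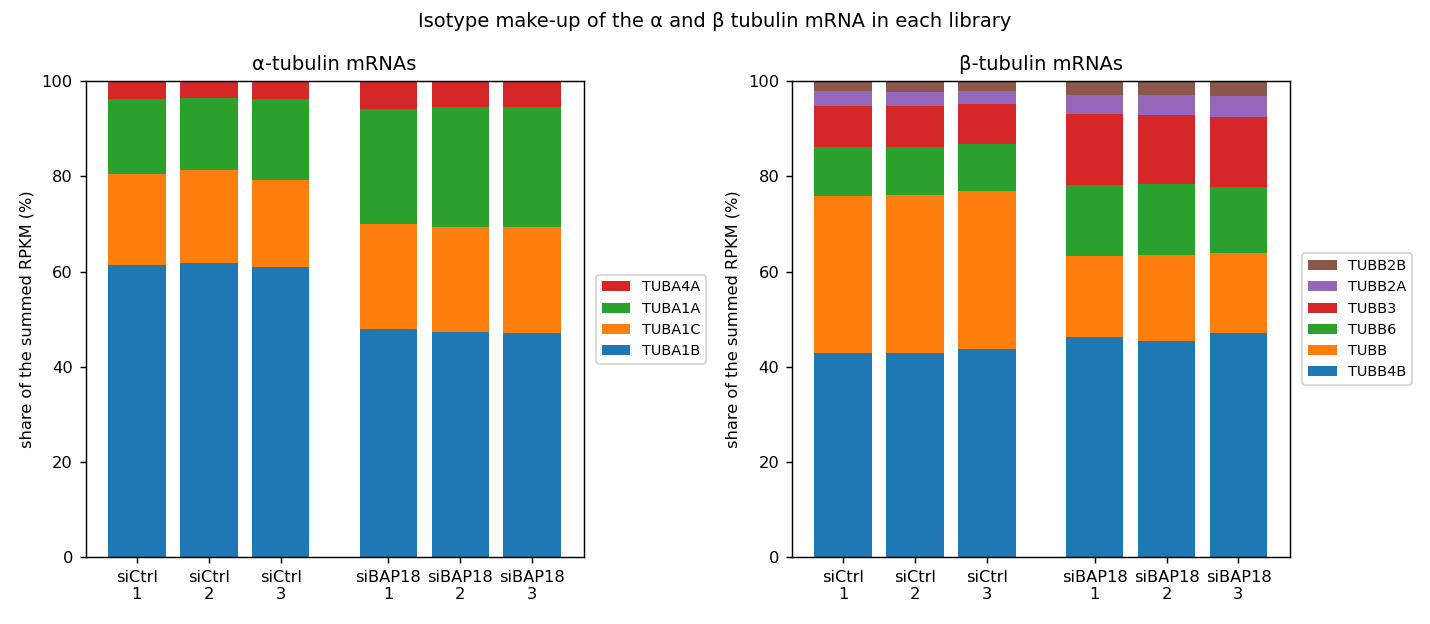
Share of each isotype in the summed RPKM (vertical axis, percent) of the 4 α isotypes (left) and the 6 β isotypes (right), with 1 stacked bar a library. TUBB takes about 33% of the β bar in each siCtrl library and 16.8% to 18.0% in the siBAP18 libraries, and TUBA1B goes from about 61% to 47% of the α bar.

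Near-identical sequence and shared exons limit how far reads can be given to 1 isotype. Of all 150-base windows of a principal transcript, the length of 1 sequenced read, none of TUBA4A, TUBB4B or TUBB6 occurred exactly in a transcript of another gene. The share was 2.50% for TUBB, all of it in the pseudogene TUBBP1. It was 6.91% for TUBA1A, 19.1% for TUBA1B and 6.77% for TUBA1C, with each other. It was 49.4% for TUBB2A and 39.4% for TUBB2B, mostly with each other, so their separate values are uncertain. For TUBB3 it was 88.7%, with a transcript annotated across MC1R and TUBB3 that contains most of the TUBB3 message. Windows were compared in the direction of each transcript only. Bases shared with genes on the opposite strand, given below, are therefore not included in these percentages.

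The table also lists genes that share exon bases with an isotype, and the ones described here were chosen after their values were seen. XXbac-BPG252P9.9, on the strand opposite TUBB with 538 bases in common, had 7175, 6136 and 6583 counts in siCtrl and 3571, 3607 and 2829 counts in siBAP18 libraries. Its log2 fold change of −1.05 equals that of TUBB to 2 decimals. RP11-386G11.10, opposite TUBA1B with 1309 bases in common, held between 20967 and 26534 counts a library, with a log2 fold change of −0.10 that did not pass (adjusted p = 0.307). RP11-161H23.5, opposite TUBA1C with 666 bases in common, rose by 0.57 (log2, adjusted p = 5.57e-07). The libraries were prepared with a strand mark, but the setting used to count them is not given in the sources used here, so reads of these isotypes and of their antisense genes could not be told apart.

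On its own strand, TUBB3 shares 1584 bases with RP11-566K11.2, the gene across MC1R and TUBB3, which had 4376 to 5153 counts in siCtrl and 6395 to 8176 counts in siBAP18 libraries, close to those of TUBB3 itself. TUBA1A and TUBA1C are listed on opposite strands with 490 exon bases in common, of which 249 lie in the principal TUBA1A transcript and 0 in that of TUBA1C. A part of the TUBA1C count could therefore be TUBA1A reads, and its size was not tested. The value of RP11-161H23.5, which lies outside that stretch within the principal TUBA1C transcript, was also higher in siBAP18 cells. TUBB6 shares 837 bases with AFG3L2 on the opposite strand, none of them in the principal TUBB6 transcript, and AFG3L2 rose by 0.40 (log2, adjusted p = 1.50e-05) at 5153 to 8781 counts a library, beside 4876 to 8055 for TUBB6. TUBA4A shares 627 bases with STK16 on the opposite strand, all of them in the principal TUBA4A transcript, and STK16 rose by 0.40 (log2, adjusted p = 4.42e-04) at 592 to 947 counts a library, below those of TUBA4A. TUBB4B shares 124 bases of its principal transcript with FAM166A, at 239 to 341 counts a library, and TUBB2B shares 174 bases outside its principal transcript with PSMG4.

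**Figure D4:**
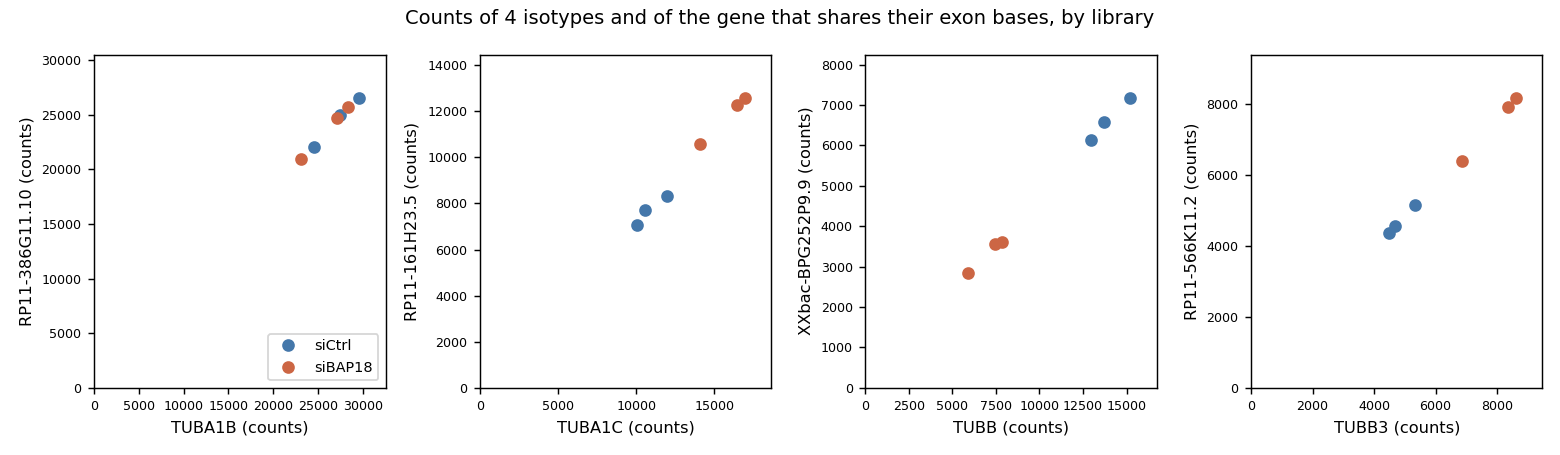
Counts of TUBA1B, TUBA1C, TUBB and TUBB3 (horizontal axes, from 0) against the counts of the gene that shares their exon bases (vertical axes, from 0), with 1 point a library. In each panel the counts of both genes are high or low in the same libraries, and the siBAP18 points lie at the lower end for TUBB and at the upper end for TUBA1C and TUBB3.

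Other α and β isotypes were scarce in these cells. TUBB4A, a brain isotype, rose from 7.14 ± 1.08 to 9.11 ± 1.20 CPM (SD, n = 3), with a log2 fold change of 0.35 and an adjusted p of 0.0153, although its libraries overlapped. TUBA8, TUBAL3, TUBB1, TUBA3D and TUBA4B had at most 37 counts in any library and did not pass the test. TUBA3C, TUBA3E and TUBB8 had at most 9 counts in any library and were not tested. The table lists 18 tubulin pseudogenes. TUBBP1, a processed copy of TUBB, had 308, 264 and 264 counts in siCtrl and 116, 162 and 130 counts in siBAP18 libraries. It fell by 1.09 (log2, adjusted p = 4.35e-07), close to the change of TUBB, from which some of its reads could come. TUBAP2 did not pass, at 0.16 (log2, adjusted p = 0.129). TUBA3FP fell by 1.03 (log2, adjusted p = 0.0109) at 15 to 43 counts a library.

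For the tubulin mRNA decay pathway 4 genes were listed, and the other subunits of CCR4-NOT were not examined. All 4 genes were lower in siBAP18 cells, with a median log2 fold change of −0.44, where 25.1% of all genes tested fell and 24.5% rose. TTC5, the factor that reads nascent tubulin, had 3523, 2971 and 3110 counts in siCtrl and 1831, 2109 and 1655 counts in siBAP18 libraries. It fell from 65.5 ± 1.45 to 36.9 ± 3.65 CPM (SD, n = 3 in each group), a log2 fold change of −0.83 with an adjusted p of 8.77e-10. CNOT1, the scaffold of CCR4-NOT, fell by 0.60 (log2, adjusted p = 1.54e-06). SCAPER, the adaptor between TTC5 and CCR4-NOT, and CNOT11, the subunit it binds, each fell by 0.27 (adjusted p = 0.00574 and 0.00705). Whether these values have any part in the isotype levels was not tested.

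Of 23 genes tested that fold tubulin, 6 fell, 8 rose and 9 did not pass (all genes tested: 25.1% fell, 24.5% rose), with a median log2 fold change of 0.09. PFDN2, a subunit of the prefoldin complex that hands nascent tubulin to the chaperonin, rose by 0.93 (log2, adjusted p = 1.08e-11). TBCC, a cofactor in the assembly of the heterodimer, rose by 0.83 (adjusted p = 6.79e-10). TCP1, a subunit of the chaperonin CCT, fell by 0.46 (adjusted p = 3.95e-06), and PDCL3, a phosducin-like partner of CCT, rose by 0.43 (adjusted p = 9.40e-06).

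Of 20 tubulin-modifying enzymes tested, 10 fell, 3 rose and 7 did not pass (all genes tested: 25.1% fell, 24.5% rose), with a median of −0.28. TTLL6, a polyglutamylase, fell by 1.28 (log2, adjusted p = 5.54e-11). TTL, the ligase that restores the carboxy-terminal tyrosine of α-tubulin, fell by 0.69 (adjusted p = 1.70e-08). The deglutamylases AGBL5 and AGTPBP1 fell by 0.48 (adjusted p = 1.36e-05) and 0.58 (adjusted p = 1.50e-04).

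Of 32 microtubule-associated and plus-end genes tested, 17 fell, 6 rose and 9 did not pass (all genes tested: 25.1% fell, 24.5% rose), with a median of −0.21. EML4, a microtubule-binding protein known as a fusion partner of ALK in lung cancer, fell by 1.08 (log2, adjusted p = 4.30e-11). MAP1A, a neuronal microtubule-associated protein, fell by 1.08 as well (adjusted p = 4.50e-09). MAP7D1, a relative of the kinesin activator MAP7, rose by 0.71 (adjusted p = 3.50e-09), and MAP6, which stabilises microtubules against cold, rose by 1.18 (adjusted p = 3.38e-08).

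Of 14 destabilising and severing factors tested, 10 fell, 1 rose and 3 did not pass (all genes tested: 25.1% fell, 24.5% rose), with a median of −0.37. The gene that rose was STMN4, a neuronal stathmin, with 0, 0 and 2 counts in siCtrl and 372, 369 and 262 counts in siBAP18 libraries. The ratio of its summed counts per scaled total was 479 (exact 95% interval 132 to 3959.7, for counting error only). This ratio rests on a siCtrl sum of 2 counts. If both reads of a pair were counted, the interval is too narrow even for counting error. STMN1, the widely expressed stathmin that sequesters tubulin dimers, fell by 0.48 (log2, adjusted p = 1.34e-06). FIGNL1, a relative of the severing enzyme fidgetin, fell by 1.25 (adjusted p = 4.76e-10), and KIF18B, a plus-end depolymerising kinesin, fell by 0.75 (adjusted p = 2.30e-07).

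No listed gene of the γ-tubulin ring complex, which nucleates microtubules, or of the centriole passed a log2 fold change of 1 in either direction. The folding and decay lists held no such gene either. Of 15 tested, 7 fell, 3 rose and 5 did not pass (all genes tested: 25.1% fell, 24.5% rose), with a median of −0.12. CDK5RAP2, which recruits and activates the ring complex, fell by 0.61 (log2, adjusted p = 8.66e-08). NEDD1, its targeting factor, fell by 0.67 (adjusted p = 4.34e-04), and TUBD1, the centriolar δ-tubulin, fell by 0.61 (adjusted p = 0.00106). MZT2B, a small ring complex subunit, rose by 0.29 (adjusted p = 0.00317).

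**Figure D5:**
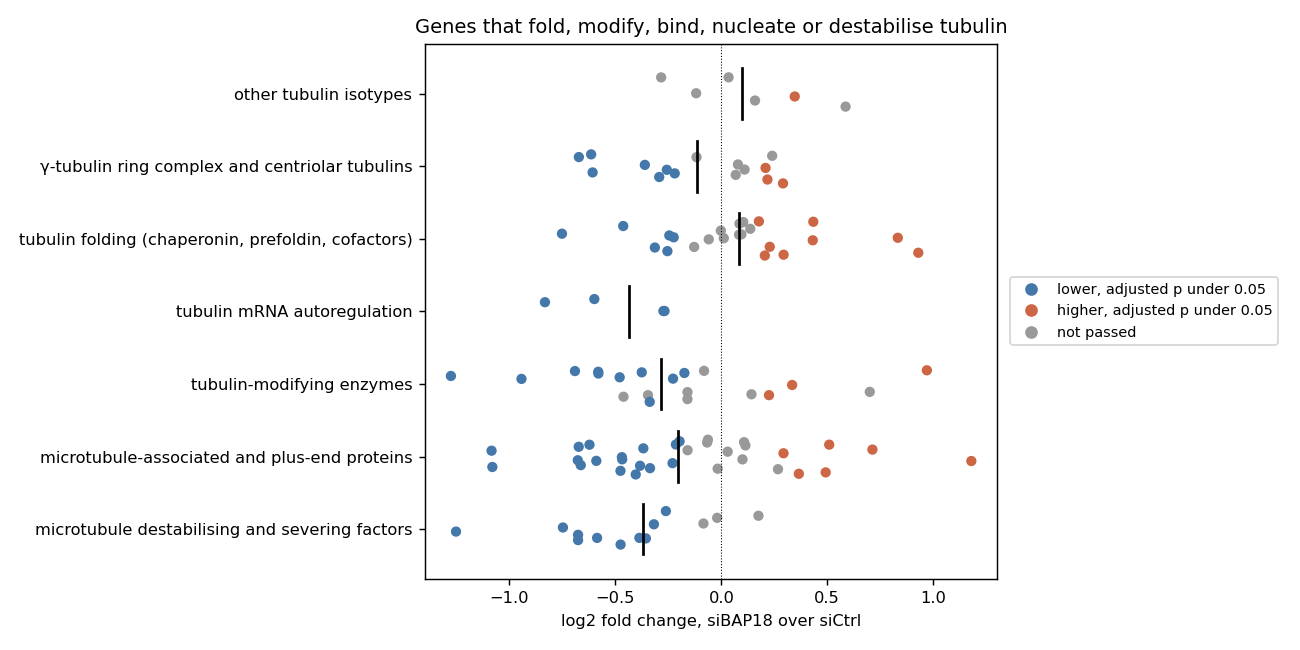
The log2 fold change of siBAP18 over siCtrl (horizontal axis) for every tested gene of 7 microtubule lists, coloured by the outcome of edgeR's test, with the list median as a vertical bar. STMN4 counts in the median of its list but lies beyond the axis and is not drawn. All 4 autoregulation genes lie below 0, and the folding genes lie on both sides.

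Because several rising isotypes are used as neuronal markers, the other neuronal markers were examined. Their summed level was 121 to 129 CPM in siCtrl and 109 to 114 CPM in siBAP18 libraries. Without SNAP25, the most abundant of them, the sum was 78.0 to 84.9 CPM in siCtrl and 90.9 to 95.4 CPM in siBAP18 libraries, so the direction of the sum turned with that gene. The intermediate filament genes INA, at 23.7 and 32.7 CPM, and NEFL, at 14.9 and 23.4 CPM in siCtrl and siBAP18 cells, were the main higher terms in it. Of 14 listed, 13 were in the table and 8 were tested, of which 3 fell, 4 rose and 1 did not pass (all genes tested: 25.1% fell, 24.5% rose), with a median log2 fold change of 0.26. SNAP25, a synaptic SNARE protein, fell by 1.17 (log2, adjusted p = 1.15e-12), RBFOX3 fell by 0.96 (adjusted p = 5.52e-08) and MAP2 fell by 0.62 (adjusted p = 3.97e-06). The neurofilament genes NEFL, INA and NEFM rose by 0.65 (adjusted p = 5.57e-07), 0.47 (adjusted p = 8.04e-06) and 1.25 (adjusted p = 0.00947), and TUBB4A, given above, was the fourth that rose. INA and NEFM were on the marker list and are named here after their values were seen. The other listed markers in the table, ELAVL3, ELAVL4, SYN1, GAP43 and STMN2, had at most 20 counts in any library, and all were under the filter. Markers of the same list were thus present to unlike degrees, since RBFOX3 had 239 to 543 counts and SYP 494 to 664 counts a library.

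Epithelial markers were also examined, because A549 is an epithelial line, and all 6 had counts in every library. KRT8, a simple-epithelial keratin and the most abundant of 6 epithelial markers, stood at 13436 CPM in siCtrl and 10433 CPM in siBAP18 cells and fell by 0.37 (log2, adjusted p = 3.36e-04). CDH1, which encodes E-cadherin, fell by 1.32 (adjusted p = 3.81e-14) and EPCAM fell by 0.41 (adjusted p = 3.78e-05), whereas KRT7 rose by 0.43 (adjusted p = 5.95e-05). In all, 4 epithelial markers fell, 1 rose and 1 did not pass (all genes tested: 25.1% fell, 24.5% rose). Markers of fibroblasts, endothelium and leukocytes summed to 14.2 to 15.6 CPM in siCtrl and 11.04 to 12.3 CPM in siBAP18 libraries, most of it COL1A1, which fell by 0.38 (log2, adjusted p = 0.00124). PECAM1, an endothelial adhesion gene, fell by 1.53 (adjusted p = 0.00123) at 8 to 45 counts a library, CDH5, an endothelial cadherin, rose by 1.098 (adjusted p = 0.0148) at 8 to 36 counts, and COL3A1 did not pass (adjusted p = 0.296). Of these markers, 9 of 12 were in the table and 5 were tested, with 2 lower, 1 higher and 2 not passed (all genes tested: 25.1% fell, 24.5% rose), and their part in the tubulin values was not tested.

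The genes whose levels most resembled those of the α and β isotypes with the highest RPKM, TUBA1B and TUBB4B, over the 6 libraries were sought among the 4624 tested genes whose log2 CPM averaged 5 or more. For TUBA1B they were RP11-386G11.10 (Pearson r = 0.997), which shares its bases, MADD (r = 0.991) and DNPH1 (r = 0.990). For TUBB4B they were NME2 (r = 0.991), SMARCD2 (r = 0.980) and OTUB1 (r = 0.977). These correlations describe 6 libraries that share 2 groups and a scaling, and the log2 fold changes of all 6 genes lay between −0.11 and 0.01.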

How the data were processed

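Poly(A) RNA of 3 siCtrl and 3 siBAP18 cultures was sequenced as paired 150-base reads. The authors deposited raw counts per gene, with exon positions on hg38 and a listed gene length, and the same data as RPKM. Per the labels, the submitters' processing notes name the builds hg38 and GRCm38. The aligner, counting program, annotation release and strand setting are not given in the sources used here. The deposited RPKM could be recomputed from the counts, the listed lengths and the column totals, for 100.0% of values within 1e-06. Of the counts from 1 to 20, 75.9% were even, so both reads of a pair may have been counted, and counting error is then larger than the counts imply.

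Genes passing filterByExpr (20776 of 35474) were scaled by TMM and compared with edgeR 4.0.16 (quasi-likelihood test, R 4.3.3) with Benjamini-Hochberg adjustment, at an adjusted p under 0.05. No covariate was used. In simulated data made from these libraries, with 20450 genes tested, 200 of 200 changed genes and 6 others were called. Alternatives used DESeq2 1.42.0, limma 3.58.1 on log2(RPKM + 1) and log2(RPKM + 0.1), other scalings and filters, a replicate block and each library left out. Replicates were not copies, as chi-square divided by its degrees of freedom was 4.19 to 4.90 for pairs within siCtrl and 11.3 to 26.2 for pairs within siBAP18.

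The isotypes and the 10 gene lists were chosen with earlier results of these data known. In each list up to 4 tested genes with the smallest adjusted p were named, besides all isotypes, the 3 most abundant pseudogenes and, outside this rule, the overlapping genes, INA and NEFM. DCX, DCN, PTPRC and CD3E of the marker lists were not found by symbol. Coding sequences and shared windows came from GENCODE 29 with Python 3.11.15 and Biopython 1.88, and plots from matplotlib 3.10.9.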

Additional observations from a re-analysis of the deposited data

How the results depend on the processing

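Over 17 alternative fits, the 8 isotypes that passed the test kept their direction and passed in every one. TUBB ranged from −1.08 to −1.02 and TUBA1A from 0.82 to 1.00 on the log2 scale. TUBB4B passed in none of the 17, and TUBA1B passed in 1. The sign of TUBB4B, which is near 0, turned with DESeq2's Wald test (0.0024), DESeq2's size factors (0.0024), at least 10 counts in every library (0.0012), upper-quartile scaling (0.0046), without siBAP18 replicate 2 and without siCtrl replicate 3. Its values without 1 library at a time ran from −0.0736 to 0.0622. In the same 6 fits between 1 and 2 isotypes were lower, and between 1 and 2 passed both limits. As shares of summed CPM instead of RPKM, the change was −18.4 percentage points for TUBB, 0.732 for TUBB2A, 0.598 for TUBB2B, 9.05 for TUBB3, 1.87 for TUBB4B and 6.13 for TUBB6. Per principal transcript length, chosen after seeing the data, it was −14.8 for TUBB, 0.746 for TUBB2A, 0.465 for TUBB2B, 8.83 for TUBB3 and −0.107 for TUBB4B. Over all genes, 1758 passed both limits, against 909 with limma on log2(RPKM + 0.1), 348 on log2(RPKM + 1) and 345 on the latter without a filter. The larger pseudocount shrinks the fold change of low genes. Nothing in the labels pairs the libraries by replicate number, and residuals of same-numbered libraries correlated at −0.017, 0.051 and 0.0038 across all genes. A correlation over all genes cannot decide this for single genes. For TUBA1A, TUBA1B, TUBA1C, TUBA4A, TUBB and TUBB4B, replicate 2 had the lowest and replicate 3 the highest CPM in both groups. TUBB2A, TUBB2B, TUBB3 and TUBB6 did not have that order in both groups. Whether the isotypes share a replicate effect was not tested. With a replicate block the isotype counts were 1 lower and 7 higher, and no isotype's call changed. With 3 libraries a group, an exact permutation test cannot go below p = 0.1, so the adjusted p-values rest on edgeR's model. Reads shared with overlapping or near-identical genes limit the values of the 10 isotypes to different degrees, and depth limits the scarce tubulins that were not tested.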
